A study of Mus musculus with 9 samples.

Results

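Among the 23337 genes counted, 173 belong to the group described here, which consists of all gene symbols formed by Zfp and a number from 500 to 999, 172 in all, together with 2610305D13Rik. The symbols were chosen by name, and 2610305D13Rik, which RefSeq now calls Zfp979, was added with its values in these data already known. RNA came from immortalised Cebpb-ko MEFs, embryonic fibroblasts of mixed C57BL/6 and 129 background that carry no functional gene for the transcription factor C/EBPβ. The cells were stably transfected and selected with Zeocin to express rat LAP, the long activating C/EBPβ isoform, rat LIP, the short isoform without the activation domains, or only the empty vector (EV). All 3 groups thus share the Cebpb deletion, the immortalisation and the selection, and each has 3 libraries. Whether the libraries of a group came from separate cultures is not stated in the sources used here, so the p-values measure the spread between these libraries, which may be technical.

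Zfp symbols denote mouse zinc finger proteins. Most of them are C2H2 proteins, in which each finger folds around a zinc ion and several fingers in a row read a stretch of DNA. Many carry a KRAB box near the N-terminus that recruits the corepressor TRIM28, and with it histone methylation and silencing, and a large share of KRAB zinc finger proteins bind transposable elements. KRAB zinc finger genes arose by repeated duplication and often lie in clusters, and some are nearly identical in sequence. Members without a KRAB box are a mixed collection of older genes that act in transcription, ribosome control and development.

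A KRAB box pattern was found in the longest open frame of 99 of the 173 members, and 70 had none. The other 4 have no coding transcript in the annotation used. KRAB members had a median of 12 C2H2 fingers and the members without the box a median of 7.5. Chromosome 7 carries 47 members, chromosome 17 carries 22 and chromosome 8 carries 17. On chromosome 17, 20 of the 22 have the KRAB box, against 24 of the 47 on chromosome 7. In 60 members no 50-base stretch of the longest coding transcript, the length of a read, occurs in a transcript of another gene. In 40 members over 10% of such stretches are shared, and in 8 over 50%, so that reads of these genes could be split, lost or counted elsewhere. Zfp708 and Zfp935 share 100% of theirs, Zfp600 85.0% and 2610305D13Rik 24.6%, mostly with Zfp978. The other genes were those of GENCODE M21, and genes that overlap a member were not set apart. Reads were counted on a RefSeq annotation, where some of these genes may be absent.

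The libraries held 24839139 to 33522082 reads assigned to genes. A count of 3 corresponds to 0.0895 to 0.121 CPM, counts scaled to a common library size, which covers counting error only. CPM below are scaled over all 9 libraries by the TMM method unless a comparison is named. Of 9 fibroblast markers, Col1a1, Col1a2, Col3a1, Vim and Fn1 were each at 1577 CPM or more in every library, whereas Pdgfrb stayed at or below 1.73 CPM and Lum had 0 counts in every LIP library. The summed level of the 9 markers was 33336 to 38001 CPM in EV, 24578 to 41313 CPM in LAP and 14526 to 28773 CPM in LIP. Markers of endothelium and muscle summed to at most 1.59 and 0.124 CPM, those of epithelium to at most 3.91 CPM and those of blood, of which Cd68 alone was counted, to at most 8.19 CPM. The 4 pluripotency markers summed to at most 2.84 CPM, nearly all from Nanog.

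In the LIP libraries 2610305D13Rik had 223, 481 and 402 counts. Of related genes in the same cluster, Gm13154 had 9, 16 and 10 there and Rex2 had 0 in each. Only 2610305D13Rik of these differed between LIP and EV after adjustment of p, as described below. The upstream sequences of these genes, the only parts aligned, are shown because they are alike. They are the 250 bases before the RefSeq start on GRCm38.p6, read 5′ to 3′ on the strand of the gene. 2610305D13Rik lies at chr4:147611936-147642508 on the minus strand and the bases shown at chr4:147642509-147642758, those of Rex2 lie on the plus strand at chr4:147021600-147021849 and those of Gm13154 on the plus strand at chr4:147553027-147553276. Capitals mark bases that are not matched in the alignment, for 2610305D13Rik against Rex2 and for the other genes against 2610305D13Rik.
2610305D13Rik: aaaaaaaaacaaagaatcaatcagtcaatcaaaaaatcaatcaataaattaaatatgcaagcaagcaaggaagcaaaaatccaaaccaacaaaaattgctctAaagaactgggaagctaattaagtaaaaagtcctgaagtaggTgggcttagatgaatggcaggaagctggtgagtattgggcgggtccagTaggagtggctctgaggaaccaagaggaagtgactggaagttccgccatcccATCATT
Rex2: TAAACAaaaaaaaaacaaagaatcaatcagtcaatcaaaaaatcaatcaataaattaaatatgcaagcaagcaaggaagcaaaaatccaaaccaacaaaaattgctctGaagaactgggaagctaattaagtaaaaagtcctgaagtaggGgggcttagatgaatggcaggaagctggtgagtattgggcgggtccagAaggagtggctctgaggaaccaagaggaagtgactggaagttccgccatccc
Gm13154: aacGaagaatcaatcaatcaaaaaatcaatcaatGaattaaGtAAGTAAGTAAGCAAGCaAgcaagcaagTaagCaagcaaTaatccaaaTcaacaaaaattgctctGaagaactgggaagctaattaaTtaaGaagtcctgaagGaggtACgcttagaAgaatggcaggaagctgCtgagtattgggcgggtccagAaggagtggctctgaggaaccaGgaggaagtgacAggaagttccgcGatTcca
Rex2, another KRAB zinc finger gene, has the same sequence but for 3 substitutions and a shift of the annotated start, with 94.1% identity over 256 aligned positions. Gm13154, named Zfp985 in RefSeq, has 80.1% identity and 21 substitutions. A promoter listed for Gm13152 of the same cluster, not shown, is closer, with 83.6% identity and 19 substitutions. Others listed for Gm13152 have 42.2% and 42.4%. The promoters of the genes shown were taken from 250 bases before to 50 bases after the start. None of them contains TTGCNNAA, the core of the C/EBP site searched on both strands. It occurs in 10.8% of all 32851 promoters and in 10 of the 173 promoters listed for 142 of the members (5.78%). The composite site TTGCATCA of ATF4 and C/EBP, whose letters differ from TTGCNNAA, occurs in 0.895% of all promoters and in 1 of the 173.

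The members were on the whole transcribed at modest levels. Of the 173, 130 (75.1%) averaged at least 20 counts over the 9 libraries, against 49.4% of all genes, and 5 had no count in any library, namely Zfp536, Zfp572, Zfp616, Zfp648 and Zfp831. Among genes with that mean, CPM per kb of transcript had a median of 2.78 in the KRAB members, 5.82 in the other members and 8.59 in all genes with a known length. The highest member by CPM per kb was Zfp706, a small single-finger protein known to restrain Klf4 in embryonic stem cells, at 73.0. Zfp664, Zfp598 and Zfp740 followed with 34.4, 31.9 and 28.8. The highest KRAB member was Zfp948, in place 8, with 20.4. A low count cannot be read as a silent gene in this table, since Uhrf1, a gene that dividing cells use, is listed at 0 in every library and Dnmt1 had a mean of 0.119 CPM in EV.

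Members of known role covered a wide range of levels. Zfp598, the ubiquitin ligase that marks collided ribosomes, had 103 ± 9.44 CPM in EV, 98.9 ± 8.11 in LAP and 119 ± 24.9 in LIP (SD, n = 3 each). Zfp622, a factor in the maturation of the large ribosomal subunit, had 60.6 ± 1.68, 61.1 ± 9.19 and 64.4 ± 9.96 CPM in the same order. Zfp592 and Zfp687, which share a chromatin complex, had 56.7 ± 7.12 and 50.6 ± 4.37 CPM in EV, and Zfp644, a partner of the G9a methyltransferase, had 63.1 ± 3.44. Zfp521, a regulator of the choice between bone and fat, had 32.0 ± 1.28 CPM in EV, 29.7 ± 0.517 in LAP and 28.4 ± 3.42 in LIP. Zfp830, a protein linked to splicing and genome stability, had 20.6 ± 1.95 CPM in EV. Zfp809 and Zfp932, KRAB proteins that silence retroviral elements, had 2.52 ± 0.249 and 18.2 ± 1.22 CPM in EV. Zfp516, a factor of brown fat, Zfp568, the repressor of a placental Igf2 transcript, Zfp703, Zfp750, a factor of epidermal differentiation, and Zfp819 were all below 1 CPM in every group mean. None of these members had an adjusted p under 0.05 in any comparison by edgeR's quasi-likelihood test. Zfp827, a protein found at telomeres, had 52.0 ± 6.40 CPM in LIP and 37.8 ± 4.47 in LAP as scaled for that comparison, with a log2 fold change of 0.46 (adjusted p = 0.515 in edgeR's quasi-likelihood test).

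The comparison of LIP with EV asks how expression of the short isoform changes the transcriptome of C/EBPβ-deficient cells. Of the 168 members tested, 1 was higher and 0 were lower at an adjusted p under 0.05 in the quasi-likelihood test of edgeR, with p-values adjusted by Benjamini and Hochberg's method over all 18203 genes tested. Over all genes 0.0659% were called higher and 0.33% lower. At an unadjusted p under 0.05, 6 members were higher and 7 lower, that is 3.57% and 4.17% of the members against 4.23% and 6.75% of all genes. The share of members was thus near or below that of all genes. The edgeR exact test called 1 lower member, Zfp677, and DESeq2 called 0. In bulk RNA, fewer cells of a type and less RNA per cell cannot be told apart. All 6 higher members carry the KRAB box, 1 of them 2610305D13Rik, which was added with its values known, as do 3 of the 7 lower ones and 98 of the 168 members tested.

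The member that passed was 2610305D13Rik. It has been described as Ssm1b, a strain-specific modifier that brings about DNA methylation of a transgene in the early embryo. It was counted with 54, 56 and 99 reads in EV, with 80, 135 and 13 in LAP and with 223, 481 and 402 in LIP. Every LIP library lay above every EV and LAP library, and the LAP libraries spread more widely than the EV libraries. As scaled for the comparison, it had 12.8 ± 3.39 CPM in LIP and 2.25 ± 0.633 in EV (SD, n = 3 per group, where a two-sided exact permutation test gave p = 0.1, as small as the design allows). On the log2 scale it differed by 2.51 with a standard error of 0.29, or 5.68-fold, and edgeR gave an adjusted p of 0.0034. As the gene was added with this result known, the value is a description. The test called it in each of 6 fits that left out 1 library, but not when filterByExpr chose the genes tested (adjusted p = 0.0561).

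**Figure D1:**
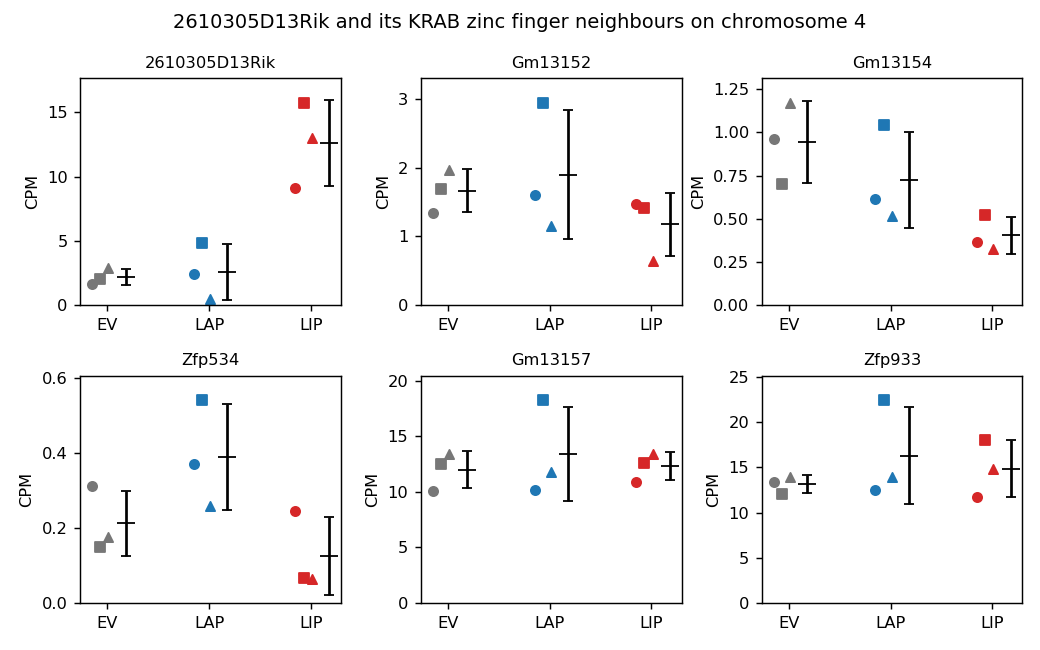
CPM (TMM over 9 libraries, linear axis from 0) of 2610305D13Rik and 5 KRAB zinc finger genes beside it on chromosome 4 in EV, LAP and LIP. Circles, squares and triangles are replicates 1, 2 and 3, and the black bars are mean ± SD (n = 3). All 3 LIP libraries of 2610305D13Rik lie above the other 6, and in every gene shown, 2610305D13Rik included, LAP replicate 2 is the highest LAP library.

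Within 1 Mb of 2610305D13Rik on chromosome 4 the table holds 33 genes with itself, of which 8 have a KRAB box pattern and 22 averaged at least 20 counts. In no other gene of these did LIP differ from EV at an adjusted p under 0.05 in edgeR's quasi-likelihood test. Before adjustment, 3 of the others had a p under 0.05, all of them lower in LIP. By that looser measure 6.75% of all 18203 genes tested were lower and 4.23% higher. After adjustment 0.33% were lower and 0.0659% higher. Whether the neighbours depart from these shares was not tested. Gm13154, the neighbour on one side, had 31, 19 and 40 counts in EV, 20, 29 and 14 in LAP and 9, 16 and 10 in LIP. Its log2 fold change of -1.22 in LIP against EV had the opposite sign (standard error 0.40, adjusted p = 0.255 in edgeR's quasi-likelihood test). Zfp534, the neighbour on the other side, shares 70.4% of its 50-base stretches with other genes and had at most 15 counts in any library. Gm13157, with 10.1 to 18.2 CPM over all libraries, and Zfp933, with 11.8 to 22.4, were the most highly counted KRAB genes of the cluster. Their log2 fold changes in LIP against EV were 0.04 and 0.18. Rex2, whose upstream sequence is so close to that of 2610305D13Rik, had 1 count in a single EV library and 0 in the other 8. Of the 4195 50-base stretches of Zfp600, 3273 also occur in Rex2, so reads of Rex2 could be lost or counted elsewhere. Of genes that are not zinc finger genes, Fv1, the retroviral restriction gene, had a log2 fold change of -0.20 and Plod1, a collagen lysyl hydroxylase, one of -0.73 (adjusted p = 0.174 in the same test). The smallest p of the neighbours was that of 2610109H07Rik, which has no KRAB box pattern. It had 35, 10 and 34 counts in EV, 24, 4 and 10 in LAP and 2, 2 and 8 in LIP. Its log2 fold change in LIP against EV was -2.54 (standard error 0.61, adjusted p = 0.104 in the same test).

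By rank among members that averaged at least 50 counts whose groups did not overlap, Zfp618 and Zfp597 were the lower ones in LIP against EV. Of 119 members with that mean, 2 lower and 14 higher ones did not overlap, while 18.9% of all 10253 genes with that mean did not. That share covers both directions together. Zfp618 had 141, 106 and 158 counts in EV and 85, 79 and 69 in LIP, but its 80 and 64 counts in LAP replicates 2 and 3 were as low as in LIP. Zfp597 had 18.3 ± 2.71 CPM in EV and 14.1 ± 0.717 in LIP. The higher ones by rank after 2610305D13Rik were Zfp566, Zfp658, Zfp599, Zfp558, Zfp706, Zfp930 and Zfp958, with log2 fold changes between 0.33 and 0.65. Their adjusted p lay between 0.374 and 0.526 in edgeR's quasi-likelihood test, so none of them was distinguished from EV. Zfp566 had 6.67 ± 0.561 CPM in EV and 10.5 ± 3.49 in LIP. Zfp706 had 284, 288 and 265 CPM in EV and 324, 327 and 406 in LIP, and LAP with 286, 397 and 325 lay across both.

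Some lower-level members had larger fold changes, with larger errors. Zfp677, a KRAB member on chromosome 17, had 37, 24 and 29 counts in EV, 32, 54 and 17 in LAP and 9, 11 and 5 in LIP. Every LIP library was below every other library. Its log2 fold change in LIP against EV was -1.70 (standard error 0.43, adjusted p = 0.121 in edgeR's quasi-likelihood test). Zfp811, another KRAB member of that chromosome, had 17, 14 and 26 counts in EV, 26, 38 and 21 in LAP and 6, 11 and 6 in LIP. Its LIP libraries were again the lowest of all 9 (log2 fold change -1.17, adjusted p = 0.357 in the same test). Zfp503, a developmental repressor without a KRAB box, was counted at a higher level. It had 675, 402 and 733 counts in EV, 780, 417 and 543 in LAP and 389, 263 and 248 in LIP. In CPM, LIP replicate 1 with 15.9 lay above EV replicate 2 with 14.8, so the groups overlapped. Zfp503 thus differed by -0.82 on the log2 scale with a standard error of 0.27 (adjusted p = 0.263), and without LIP replicate 1 it was -1.19 (adjusted p = 0.0432 in edgeR's quasi-likelihood test).

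The comparison of LAP with EV asks the same of the long isoform. No member was called in either direction among 165 tested, while 0.033% of all genes were called lower and 0.0275% higher by edgeR's quasi-likelihood test. At an unadjusted p under 0.05, 1 member was lower and 0 were higher, where 1.34% and 1.93% of all 18156 genes were. The lower one was Zfp574, a many-fingered protein without a KRAB box, with 17, 18 and 20 counts in EV, 9, 8 and 8 in LAP and 12, 13 and 15 in LIP (log2 fold change -1.04, adjusted p = 0.918). 2610305D13Rik had a log2 fold change of 0.21 with a standard error of 0.50 (adjusted p = 0.971 in edgeR's quasi-likelihood test). It turned to -0.56 without LAP replicate 2 and to -0.014 with the replicate number as a block, and LAP replicate 3 with 13 counts lay below all EV libraries. Of 119 members that averaged at least 50 counts, only Zfp746 and Zfp521 did not overlap, both lower. Over both directions together, 7.37% of all 10271 genes with that mean did not. Zfp746, the parkin-interacting KRAB protein, had 32.3 ± 4.29 CPM in LAP and 36.7 ± 0.697 in EV (adjusted p = 0.918 in the same test).

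In LIP against LAP, which sets the isoforms side by side, 1 of 167 members was higher and 0 were lower, with 0.209% of all 18166 genes called higher and 0.837% lower by edgeR's quasi-likelihood test. At an unadjusted p under 0.05, 5 members were higher and 7 lower (2.99% and 4.19%), where 3.3% and 5.98% of all genes were. 2610305D13Rik was again the member called, with 12.7 ± 3.35 CPM in LIP and 2.55 ± 2.10 in LAP (SD, n = 3 each, exact permutation p = 0.1). The difference on the log2 scale was 2.31 with a standard error of 0.48 and an adjusted p of 0.0258 in edgeR. The call was lost without LAP replicate 2, LIP replicate 1 or LIP replicate 2, where the adjusted p was 0.0748, 0.0762 and 0.0615, and with filterByExpr (adjusted p = 0.229). This comparison and the one with EV share the LIP libraries, so the values are given side by side and not as separate evidence.

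Libraries of LIP and LAP with the same replicate number deviated together from their group means, with r across genes of 0.581, 0.425 and 0.481. With the replicate number as a block, 3 members were higher and 5 lower in LIP against LAP, that is 1.8% and 2.99% of the members, where 1.72% of all genes were higher and 4.79% lower. The higher ones were 2610305D13Rik, Zfp513 and Zfp608. The lower ones were Zfp503, Zfp579, Zfp677, Zfp775 and Zfp811. All 8 had the same direction in each of the 3 pairs. The block favours genes that differ alike within pairs, so this is not separate evidence. Zfp513 had 83, 72 and 76 counts in LAP and 93, 147 and 164 in LIP, with LIP to LAP ratios of CPM of 1.48, 1.94 and 1.87 in replicates 1, 2 and 3 (adjusted p = 0.0386 with the block, 0.325 without, in edgeR's quasi-likelihood test). Its EV libraries with 106, 63 and 141 counts overlapped both groups.

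Zfp608, a regulator known from the thymus, had 553, 371 and 521 counts in LAP, 479, 688 and 1178 in LIP and 661, 554 and 632 in EV. Its ratios of 1.15, 1.76 and 1.96 were uneven, and the LIP mean rested largely on replicate 3 (adjusted p = 0.0182 with the block). Zfp503 had ratios of 0.661, 0.600 and 0.397 and differed by -0.89 on the log2 scale with a standard error of 0.20 and an adjusted p of 0.0012 in edgeR with the block. Zfp677 had ratios of 0.373, 0.194 and 0.255 and differed by -1.93 with a standard error of 0.44 and an adjusted p of 0.000952 in edgeR with the block. Zfp811 had the closest ratios, 0.306, 0.275 and 0.248, with a log2 fold change of -1.84 (adjusted p = 0.00313 with the block). Zfp579, with 380, 266 and 109 counts in LAP and 137, 210 and 73 in LIP, and Zfp775, with 102, 74 and 40 in LAP and 52, 29 and 12 in LIP, were lower within each pair although their groups overlapped. Zfp597, the lower member of first rank without the block, had 20.7 ± 3.29 CPM in LAP and 14.0 ± 0.757 in LIP (log2 fold change -0.56, adjusted p = 0.436). Zfp597 shares 22.6% of its 50-base stretches with other genes, Zfp775 12.6% and Zfp513 5.23%. Zfp654 had 31.1 ± 5.76 CPM in LAP and 23.8 ± 0.482 in LIP. The higher ones by rank after 2610305D13Rik, Zfp513, Zfp608 and Zfp827 were Zfp651, Zfp865, Zfp599 and Zfp653, with log2 fold changes of 0.45 to 0.51. Of 119 members that averaged at least 50 counts, 2 lower and 16 higher ones did not overlap between LIP and LAP. Over both directions together, 14.4% of all 10221 genes with that mean did not.

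**Figure D2:**
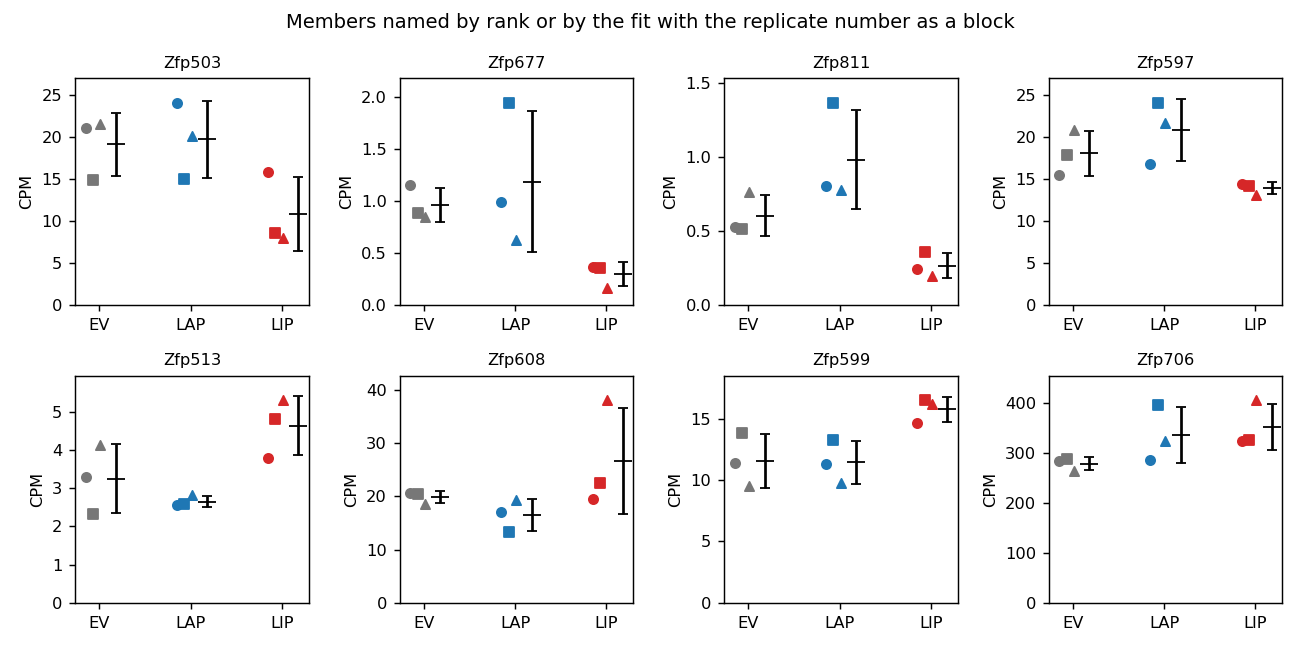
CPM (TMM over 9 libraries, linear axis from 0) of 8 members in EV, LAP and LIP. Circles, squares and triangles are replicates 1, 2 and 3, and the black bars are mean ± SD (n = 3). The LIP points of Zfp677 and Zfp811 lie below the other 6, while those of Zfp503 overlap EV and LAP through LIP replicate 1.

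**Figure D3:**
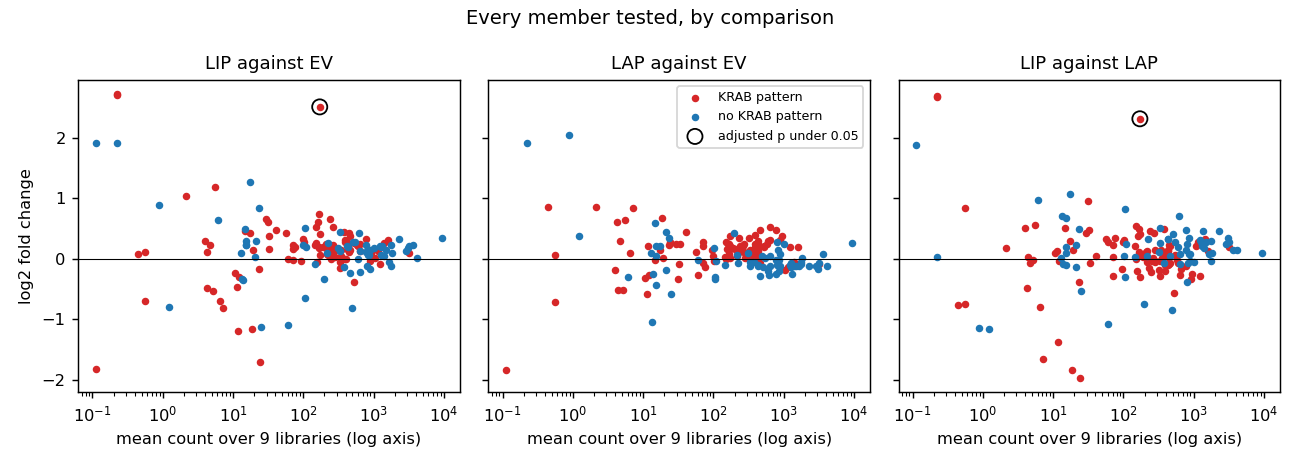
Log2 fold change of each member tested against its mean count over 9 libraries (log axis) in the 3 comparisons, with KRAB members in red and members without the box in blue. 1 member, 2610305D13Rik, is ringed as past an adjusted p of 0.05 in LIP against EV and in LIP against LAP, and the points below about 20 counts spread widest.

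Most members had a positive log2 fold change in LIP against EV, to an extent that differed between the LIP libraries. Among the 130 that averaged at least 20 counts, 103 had a positive log2 fold change against EV, with a median of 0.18, where all 11534 genes with that mean had a median of 0.02 and 52.4% were positive. The median was 0.19 over the KRAB members and 0.14 over the others. Without LIP replicate 2 the median of all 130 was 0.10, with 93 positive, and that of the members without the box was 0.06. LIP replicate 1 alone differed from the EV mean by a median of -0.06 in the KRAB members, while LIP replicates 2 and 3 differed by 0.18 and 0.30. In the members without the box the same medians were 0.01, 0.19 and 0.07. In the 93 KRAB genes outside the group they were -0.07, 0.19 and 0.25, near those of the KRAB members. The summed fibroblast markers were lower in every LIP library than in any EV library, and their part in this was not tested. In LAP against EV the KRAB members had a median of 0.19, with 61 of 76 positive, and the other members one of -0.10, with 15 of 53 positive. Without LAP replicate 2 the KRAB members had a median of -0.07 and 23 of 76 were positive. In LIP against LAP the median of the KRAB members was 0.03 with all libraries and 0.27 without LAP replicate 2. A single library thus set the direction of the KRAB members as a group in LAP against EV.

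That library stood apart in its KRAB members. In LAP replicate 2, 68 of 75 KRAB members that averaged at least 20 counts lay above the mean of the other LAP libraries, by a median of 0.58 on the log2 scale (CPM plus 0.5). The members without the box had a median of -0.07, with 22 of 54 above, and all 11535 genes had a median of 0.01. KRAB genes outside the group, 93 in number, showed the same with a median of 0.50 and 86 above. The highest library of the LAP group was replicate 2 in 64 of the 75. In the other 8 libraries the median of the KRAB members ran from -0.35 in LIP replicate 1 to 0.23 in LIP replicate 3. In LAP replicate 2, 37 KRAB members were at least 1.5-fold above the other LAP libraries and 3 members without the box were, as were 14.0% of all genes. The largest difference among the 75 KRAB members was that of 2610305D13Rik, 1.65 on the log2 scale, with 80, 135 and 13 counts in LAP.

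**Figure D4:**
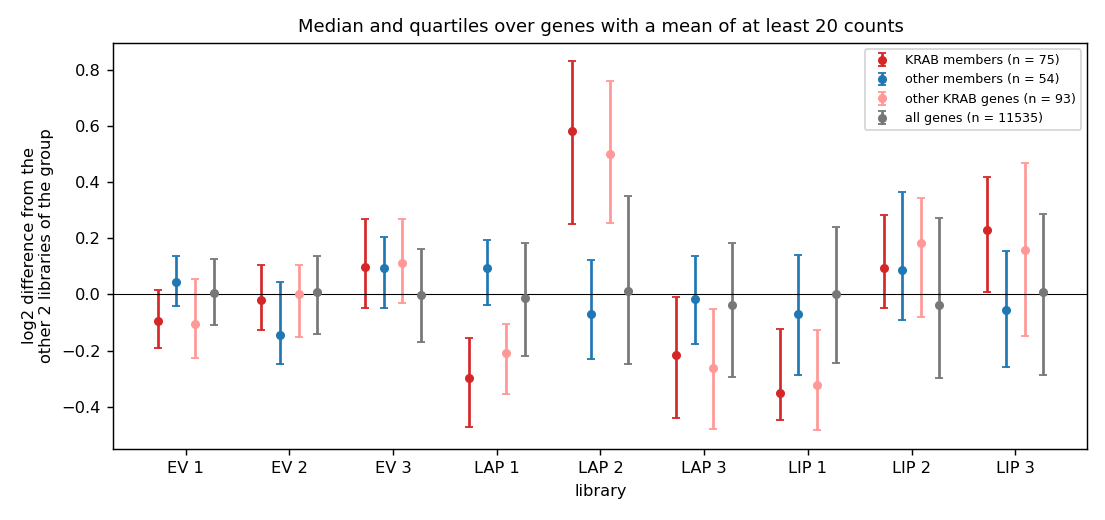
Log2 difference (CPM plus 0.5) of each library from the mean of the other 2 libraries of its group, as the median (point) and quartiles (bar) over genes that averaged at least 20 counts. KRAB members (red) and KRAB genes outside the group (pink) stand at 0.58 and 0.50 in LAP replicate 2, members without the box (blue) and all genes (grey) at -0.07 and 0.01.

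Named after their values were seen, Zfp958, Zfp932 and Zfp930 show how large the difference was. Zfp958 had 360, 825 and 342 counts in LAP, 393, 357 and 436 in EV and 333, 521 and 582 in LIP. Zfp932, which shares 45.2% of its 50-base stretches with other genes, had 654, 1207 and 420 counts in LAP and Zfp930 had 712, 1357 and 549. In all of these, LAP replicate 2 was the highest of the 9 libraries and LAP replicates 1 and 3 lay near EV. A few KRAB members went the other way, among them Zfp777 with 1342, 850 and 956 counts and Zfp746 with 1166, 789 and 924. By chromosome, the median difference of KRAB members in LAP replicate 2 was 0.73 on chromosome 17 (16 of 17 above), 0.74 on chromosome 13 (7 of 7), 0.58 on chromosome 8 (10 of 11) and 0.32 on chromosome 7 (15 of 18). The 18 members of chromosome 7 without the box had a median of -0.19, with 3 above. Members without the box had a median of 0.31 on chromosome 6 (4 of 4 above), 0.09 on chromosome 15 (2 of 4) and -0.01 on chromosome 5 (2 of 4).

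Base composition and length moved with the library too. KRAB members with that mean had a median transcript GC content of 41.4%, the other members 52.7% and all genes 50.1%. In LAP replicate 2 the lowest quartile of all genes by GC content, up to 45.4%, had a median difference of 0.20 and the highest quartile one of -0.11. The 61 KRAB members in the lowest quartile had a median of 0.67 there, and the 6 members without the box in it one of 0.32. In the next quartiles the KRAB members had medians of 0.19 (n = 6), 0.60 (n = 4) and, at the highest GC content, -0.06 (n = 4), so few of them could be compared outside the lowest. The shortest quartile of all genes had a median of 0.34 and the longest one of -0.20. The summed fibroblast markers were also lowest in LAP replicate 2 among the LAP libraries, with 24578 CPM against 41313 and 33457. Among KRAB members without any shared 50-base stretch, 17 of 19 lay above with a median of 0.49. The part of base composition, length and cell state in the difference was not tested.

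No gene listed for the machinery that KRAB proteins recruit passed the test. Of 28 genes in the list, 27 are in the table and 26 entered the test, where 0 passed an adjusted p of 0.05 by edgeR's quasi-likelihood test in any of the 3 comparisons, nor by DESeq2 or the edgeR exact test. Over all genes, at most 0.837% were called in either direction of any comparison by the quasi-likelihood test. At an unadjusted p under 0.05, 1 was higher in LIP against EV, 1 in LAP against EV and 0 in LIP against LAP, and 0 were lower in each. In the same order, 4.23%, 1.93% and 3.3% of all genes were higher and 6.75%, 1.34% and 5.98% lower. Of the 27, 23 averaged at least 20 counts. Setdb1, the H3K9 methyltransferase of the complex, had only 5 to 16 counts a library and Dnmt3b at most 4, while Uhrf1 at 0 was not tested. A difference in these was not detectable at such counts, and the reason for the low counts was not tested. Trim28, the corepressor bound by the KRAB box, had 499 CPM in EV, 489 in LAP and 489 in LIP, a log2 fold change of -0.03 in LIP against EV. The smallest p was that of Dnmt1, the maintenance DNA methyltransferase, in both comparisons with EV (adjusted p = 0.428 in LIP against EV), at group means of at most 0.311 CPM. In LIP against LAP it was that of Gatad2a, a subunit of the NuRD complex (unadjusted p = 0.161 in edgeR's quasi-likelihood test).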

How the data were processed

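RNA of 9 libraries (3 each of EV, LAP and LIP) was prepared with TruSeq RNA v2, which does not mark strand, and sequenced as 50-base single reads. The authors deposited raw counts per gene without normalization, made with bcl2fastq 1.8.3, TopHat 1.4.1 and HTSeq 0.5.4 on mm10 with a RefSeq annotation (the build is written "GRCh38/mm10"). The handling of reads with several alignments and the strand setting are not given in the sources used here, so near-identical copies and overlapping genes cannot be told apart. Totals were 24839139 to 33522082 counts, and 0 columns were left unused.

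Each comparison used its 6 libraries with all genes that had 1 count or more, TMM scaling, and the quasi-likelihood test of edgeR 4.0.16 under R 4.3.3 with Benjamini-Hochberg adjustment (threshold 0.05). The standard error of a log2 fold change was taken as its size over the root of F. The alternatives were DESeq2 size factors, total counts, filterByExpr, DESeq2 1.42.0, the edgeR exact test, all 9 libraries, the replicate number as a block, and each library left out. Replicate numbers come from the labels. In LIP against LAP and in LAP against EV every same-numbered pair deviated together (r across genes 0.425 to 0.581 and 0.222 to 0.549), in LIP against EV r was 0.311, -0.123 and 0.241.

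Members and lists were chosen with earlier results of these data known. Named were 2610305D13Rik, members past the threshold, per comparison up to 8 lower and 8 higher members of smallest p that averaged at least 50 counts with no overlap between groups, 18 members of known role (17 in the table), and genes within 1 Mb of 2610305D13Rik. Others are the members called with the block, and Zfp677, Zfp811, Zfp503, Zfp574, Zfp958, Zfp932, Zfp930 and Zfp777, named after their values were seen. Positions and promoters are from RefSeq GRCm38.p6, where 169 members matched by symbol and 4 by synonym, and C2H2 and KRAB patterns were searched in the first 150 residues (KRAB) or the whole (fingers) of the longest frame of GENCODE M21 transcripts. The plan named RefSeq proteins for the pattern, and translated GENCODE frames were used in their place. The KRAB pattern was widened, after values had been seen, because it missed known KRAB genes. KRAB genes outside the group were looked for among symbols such as Zfp, Gm, Rik and Rex2. The comparison of libraries within a group, by KRAB box, chromosome, base composition and length, was also chosen after seeing the data. Alignments used Biopython and figures matplotlib.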

Additional observations from a re-analysis of the deposited data

How the results depend on the processing

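The log2 fold change of 2610305D13Rik in LIP against EV was 2.51 and lost its call under filterByExpr (2.52), leaving 0 higher members there, and ranged from 2.31 to 2.75 with a library left out. In LIP against LAP it was 2.31, lost its call under filterByExpr (2.31), again with 0 higher members, and ranged from 1.85 to 3.07 with a library left out, where the higher members numbered 0 or 1. The call was lost without LAP replicate 2, LIP replicate 1 or LIP replicate 2. In LAP against EV the value of 0.21 turned to -0.014 with the replicate block and to -0.56 without LAP replicate 2, within a range of -0.56 to 0.69, and Zfp932, 0.52 with all libraries, ranged from -0.023 without LAP replicate 2 to 0.78 without LAP replicate 3. Lower members in LIP against EV numbered 1 under the edgeR exact test (Zfp677) and 0 or 1 with a library left out (Zfp503 without LIP replicate 1). In LIP against LAP they numbered 2 under the edgeR exact test and with all 9 libraries (Zfp677 and Zfp811 in both), 5 with the replicate block and 0 or 1 with a library left out (Zfp677 without LAP replicate 3), and the higher ones numbered 3 with the block. The block changed no other count of members called. In all genes it raised the calls from 60 lower and 12 higher to 402 and 65 in LIP against EV, from 6 and 5 to 30 and 24 in LAP against EV, and from 152 and 38 to 871 and 312 in LIP against LAP. The median over the members in LIP against EV, 0.18, ranged from 0.10 without LIP replicate 2 to 0.26 without LIP replicate 1. In LAP against EV, 0.07 ranged from -0.05 without LAP replicate 2, with 42 of 130 members positive instead of 77, to 0.12 without LAP replicate 1, and was 0.03 with total counts. The 0.10 of LIP against LAP ranged from 0.06 without LIP replicate 3 to 0.20 without LAP replicate 2, and was 0.16 with total counts. With the narrower KRAB pattern used at first, an alternative chosen after seeing the data, 57 of 63 KRAB members lay above the other LAP libraries in LAP replicate 2 with a median of 0.54, against -0.020 in the remaining 66. The cause of these changes was not tested. Members under about 20 counts, 43 of the 173, are limited by these low counts, whose reason was not tested.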
